A study of Danio rerio with 23 samples.

Results

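In the zebrafish ovary, 40 of 57775 annotated transcripts were lower in every library from glucocorticoid receptor mutants than in any library from wild-type fish, by a margin of at least 1.5. They were chosen by their measured levels in all 23 libraries. A transcript was kept when its lowest wild-type level was at least 1 CPM (its estimated count divided by the sum of the library, times 1000000) and at least 1.5 times its highest mutant level. Of all transcripts, 14915 reached 1 CPM in every wild-type library, and 40 of these met the margin. With the genotypes exchanged, the same rule kept 31 transcripts. The difference between the genotypes is therefore what chose the members. Its size is given below as a description, and where its calls over all transcripts are counted they support nothing.

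The series sequenced polyadenylated RNA from dissected ovaries of female zebrafish (Danio rerio), to ask what loss of the receptor does as the ovary ages. The fish were wild type (WT) or lacked the glucocorticoid receptor in the whole body (GRKO), with no further treatment named, and were sampled 3 or 6 months after fertilisation. There were 5 WT libraries (numbers 2, 6, 10, 12 and 13) and 6 GRKO libraries (4, 7, 9, 10, 12 and 13) at 3 months. At 6 months there were 6 WT libraries (1, 2, 6, 7, 8 and 9) and 6 GRKO libraries (2, 3, 5, 10, 11 and 12). The labels name neither the mutant allele nor the strain, and they leave unsaid whether each library is a separate fish, so a p-value measures the spread between libraries, part of which may be technical. Each library summed to between 29489146 and 39785753 estimated counts.

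The glucocorticoid receptor, encoded by nr3c1, is a nuclear receptor that binds cortisol, moves to the nucleus and raises or lowers the transcription of target genes. The fish ovary holds oocytes at several stages, the granulosa and theca cells that surround them and make steroid hormones, and blood, immune and connective tissue cells. One gene can give rise to several transcripts that share exons, so a transcript can fall while another of the same gene does not. The files list Ensembl transcript identifiers, and 0 of the 57775 could be matched to a gene in the tables used here. Gene names, functions, positions and sequences of the members, the transcripts of nr3c1 itself and markers of ovarian cell types were thus not analysed here. Transcript lengths are not in the files, so CPM are not corrected for length. Differences in level are read between libraries for 1 transcript. Ranges, classes and shares over several transcripts are given in counts or CPM and are not read as amounts of RNA. In whole tissue, fewer cells of a type and less RNA per cell cannot be told apart.

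Some libraries stood apart over the whole profile. WT libraries 2 and 6 at 3 months had median correlations of 0.777 and 0.795 with the other 3 WT libraries of their age, and of 0.885 and 0.899 with the GRKO libraries of that age (log2 CPM of 21333 transcripts). The other 3 WT libraries correlated at 0.935 to 0.950 with each other and at 0.841 to 0.857 with GRKO. GRKO library 4 at 3 months has a mutant title but a wild-type entry in its genotype field. Here its title decided its group, and its median correlation was 0.959 with the other GRKO libraries and 0.862 with WT libraries of its age. GRKO libraries 10 and 12 at 6 months had the lowest correlations with their own group, at 0.923 and 0.891.

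The members fell into 3 classes by what was left in the mutants. In 5 of them the count was 0 in all 12 GRKO libraries. Another 13 had traces, with a highest GRKO level above 0 and under 1 CPM, and 22 were still at 1 CPM or more in at least 1 GRKO library. Over all 40, the mean WT level ran from 1.86 to 610 CPM with a median of 11.6 CPM. The mean in WT was 2.70 to 5820 times the mean in GRKO among the 35 members with a count in GRKO. It was at least 10 times the GRKO mean in 21 of the 40, counting the 5 at 0, and under 5 times in 7. In the trace class this ratio had a median of 37.6, and in the class still present a median of 6.84.

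**Figure D1:**
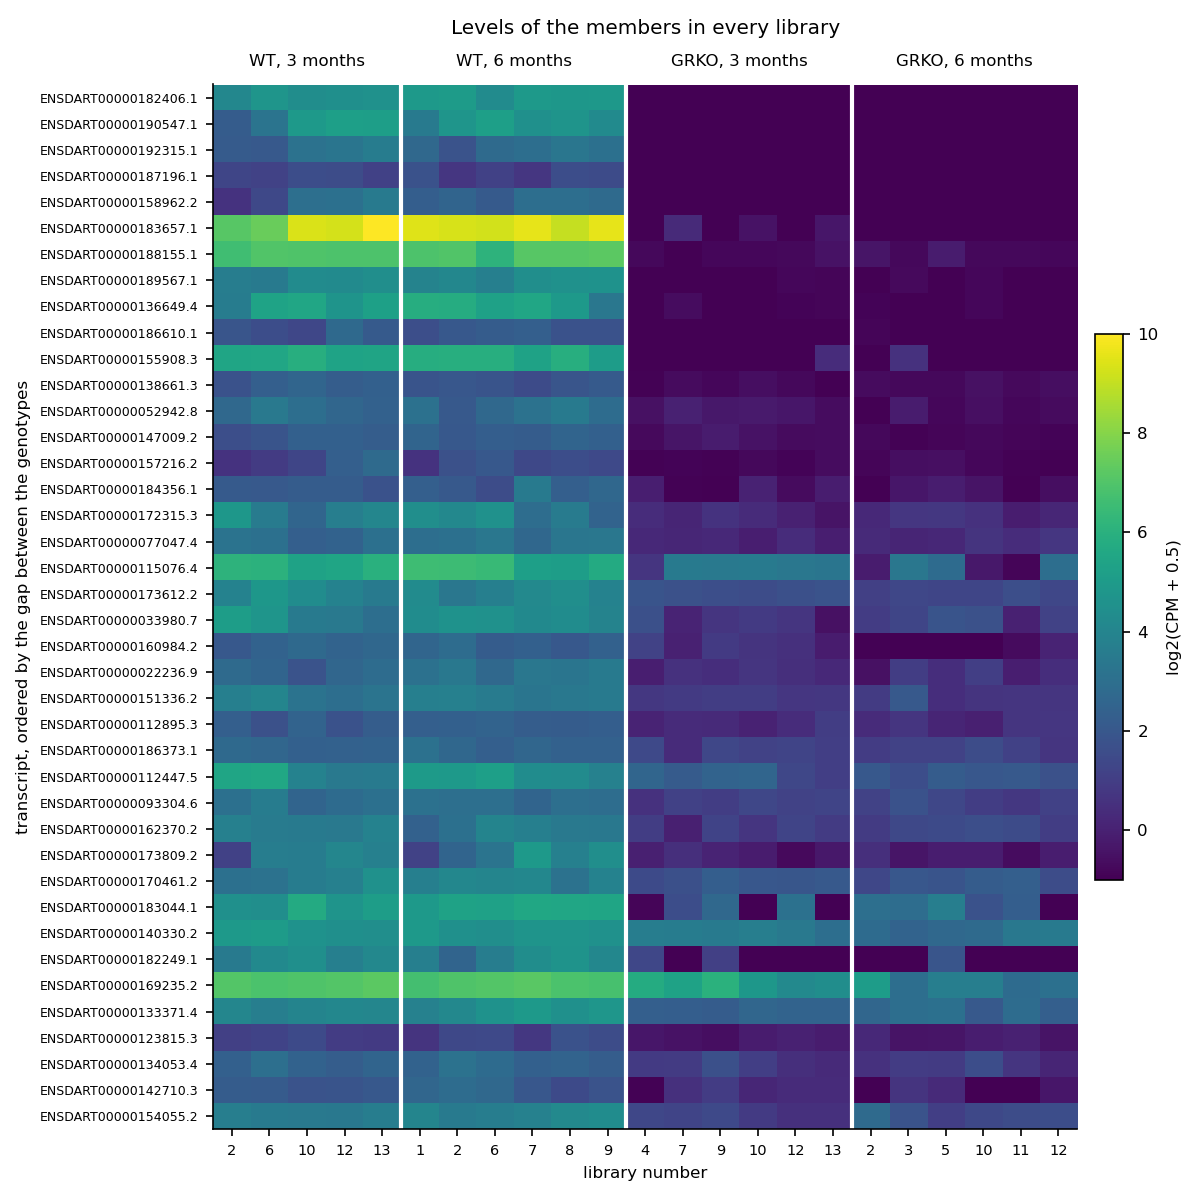
Level of each of the 40 members (vertical axis, ordered by the ratio of the lowest WT to the highest GRKO level) in each of the 23 libraries (horizontal axis, by group and library number), as log2(CPM + 0.5) in colour. The top 5 members have a count of 0 in all 12 GRKO libraries. Of the others, 13 stay under 1 CPM in every GRKO library, most of them near the top, and 22 reach 1 CPM or more in at least 1.

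ENSDART00000182406.1 took the largest share of WT counts in the class at 0. At 3 months the WT libraries held 16.5, 26.4, 20.6, 21.8 and 23.5 CPM in the order of their numbers, a mean of 21.7 ± 3.66 CPM (SD, n = 5). At 6 months the lowest, median and highest WT libraries were at 19.4, 29.3 and 32.7 CPM, a mean of 28.0 ± 4.54 CPM (n = 6). All 12 GRKO libraries were at 0, so that every WT library lay clear of every GRKO library. Set against 3 counts over the 12 GRKO libraries (0.00744 CPM), the WT mean was at least 3385-fold higher. Such a bound covers counting error only.

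ENSDART00000190547.1 was also at 0 in all 12 GRKO libraries, but it varied more among WT libraries. At 3 months WT libraries 2 and 6 held 4.05 and 8.84 CPM, and libraries 10, 12 and 13 held 30.0, 36.6 and 35.4 CPM. The 6 WT libraries at 6 months ran from 10.8 to 36.0 CPM with a median of 24.01 CPM. The WT mean was at least 3107-fold higher than the same floor. The other 3 of this class, named after their values were seen, were ENSDART00000192315.1, ENSDART00000158962.2 and ENSDART00000187196.1. Their WT means were 7.00, 5.81 and 2.01 CPM, at least 941-fold, 781-fold and 270-fold above the floor. All 5 had fractional estimated counts in all 11 WT libraries, which arise when reads fit more than 1 transcript. Whether reads of these transcripts were assigned to others in GRKO was not tested.

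Among the members with traces, ENSDART00000183657.1 took the largest share of the WT counts. WT libraries 2 and 6 at 3 months held 141 and 179 CPM, against 670, 625 and 1051 CPM in WT libraries 10, 12 and 13. At 6 months the WT libraries ran from 522 to 780 CPM with a mean of 673 ± 101 CPM (SD, n = 6). In GRKO, 3 libraries at 3 months held 0.221 to 0.739 CPM and the other 3 were at 0, and at 6 months only library 3 held any, 0.00121 CPM. The WT libraries that stand apart were thus the lowest of the WT libraries, yet far above every GRKO library. ENSDART00000188155.1 was steadier in WT. Its WT means were 119 ± 11.3 CPM (n = 5) at 3 months and 124 ± 28.8 CPM (n = 6) at 6 months. Its GRKO means were 0.0925 ± 0.0747 and 0.170 ± 0.132 CPM at the 2 ages (n = 6 each), and the highest GRKO library held 0.391 CPM.

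Among the members still present in GRKO, ENSDART00000169235.2 took the largest share of WT counts. The WT libraries held 131, 119, 125, 132 and 149 CPM at 3 months, and from 105 to 144 CPM at 6 months. The GRKO libraries held 53.8, 40.1, 64.3, 27.9, 17.7 and 20.3 CPM at 3 months in the order of their numbers, and 33.4, 7.29, 12.4, 12.5, 6.78 and 7.90 CPM at 6 months. The GRKO libraries spread over a wider relative range than the WT libraries, and the 2 GRKO ages overlapped. ENSDART00000140330.2 was singled out for the smallest ratio of means, 2.70. It ran from 20.9 to 32.4 CPM in the 11 WT libraries and from 5.23 to 12.5 CPM in the 12 GRKO libraries, with means of 25.6 ± 4.92 CPM (n = 5) and 24.3 ± 2.88 CPM (n = 6) in WT, and 10.8 ± 1.91 CPM and 7.59 ± 2.33 CPM (n = 6 each) in GRKO, at 3 and 6 months.

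**Figure D2:**
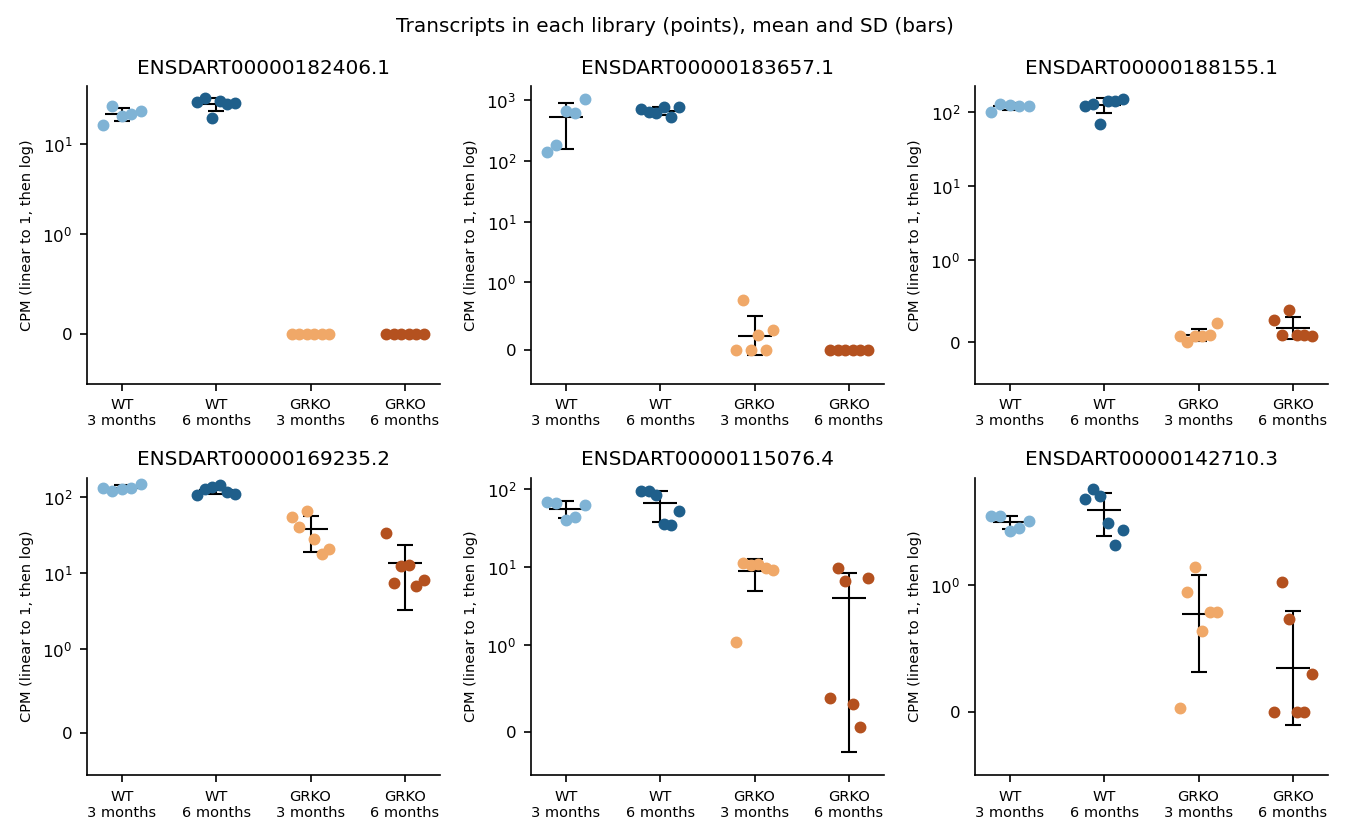
CPM (vertical axis, linear up to 1 and logarithmic above) of 6 members in each library (points), by genotype and age (horizontal axis), with the group mean and SD as bars. ENSDART00000182406.1 is at 0 in every GRKO library, ENSDART00000183657.1 splits the WT libraries at 3 months, and in the lower centre and right panels 4 GRKO libraries lie under the others.

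A pair of members split the mutants themselves. ENSDART00000115076.4 and ENSDART00000142710.3 were lowest in the same 4 GRKO libraries, number 4 at 3 months and numbers 2, 10 and 11 at 6 months; both were singled out for this pattern. The former held 1.11, 0.388, 0.320 and 0.0570 CPM in those 4 libraries and 6.70 to 11.2 CPM in the other 8. The latter held 0.0278, 0, 0.000212 and 0 CPM in the 4 and 0.295 to 1.45 CPM in the other 8. In WT they ran from 34.5 to 96.3 CPM and from 2.26 to 6.92 CPM. Both had fractional counts in 20 of the 23 libraries, and their part in this pattern was not tested.

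Near the margin, the member with the smallest ratio of lowest WT to highest GRKO level was ENSDART00000154055.2 at 1.53, with 10.1 CPM in its lowest WT and 6.57 CPM in its highest GRKO library. The first transcript outside was ENSDART00000100936.4 at 1.47, with 3.07 and 2.09 CPM. The outside transcript most like the median profile of the members over the 23 libraries was ENSDART00000171343.2, with a Pearson correlation of 0.976 on log2(CPM + 0.5) among 28558 compared. It held 0.537 to 1.53 CPM in WT and 0 to 0.114 CPM in GRKO, and so missed the minimum of 1 CPM.

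Together the members took a small part of the estimated counts. Their share of the counts was 0.129% ± 0.0399 (SD, n = 5) in WT at 3 months and 0.148% ± 0.0101 (n = 6) in WT at 6 months. In GRKO it was 0.00924% ± 0.00229 and 0.00652% ± 0.00121 (n = 6 each). A large part of the WT share, and most of its spread at 3 months, lay in ENSDART00000183657.1. Without it the WT shares were 0.0753% ± 0.00418 (n = 5) and 0.0808% ± 0.00327 (n = 6). The rule limits how low WT and how high GRKO can go, so these shares describe its outcome.

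The test fitted across all transcripts gives the members' place among them. Of 30849 transcripts tested with edgeR's quasi-likelihood test and Benjamini-Hochberg adjustment at 0.05, 5.73% were called lower in GRKO at 3 months, and 37 of the 40 members were. At 6 months 3.51% of all transcripts and 38 of the 40 members were called lower. All 40 members passed the filter on low counts. Their median log2 fold change was -3.69 at 3 months and -3.98 at 6 months, beside medians of -0.09 and -0.05 for all transcripts. This contrast chose the members, so nothing is read from these counts.

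Leaving a library out of the choice shows which transcripts rest on it. The rule was applied again with each library left out in turn, and the level of that library was then set against the others. All 40 members are in every such list, and the rule over all libraries already fixes their side. They make up 40 of each count below, so the counts lend the members no support. Only the 0 to 11 transcripts added when a library was left out could fail. Each of them was added because that library broke the margin or the minimum level, so they are no free test either. The counts here and in the next paragraph are thus unlike the shares of all transcripts beside them, and nothing is read from the difference. Each WT library left out was above every GRKO library in 40 to 43 of the 41 to 51 transcripts chosen without it. Among all transcripts at 1 CPM or more in the other WT libraries, 12.5% to 27.6% were above every GRKO library in the one left out. Each GRKO library left out was below every WT library in 40 to 44 of the 40 to 50 transcripts chosen without it, beside 5.10% to 32.0% of all such transcripts.

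The libraries that stand apart or disagree with their labels could fail only for the transcripts that leaving them out added. WT libraries 2 and 6 at 3 months were above every GRKO library in 43 of 44 and 41 of 41, with 4 and 1 added. With both left out together, 58 transcripts were chosen, 18 of them added. The 2 libraries were above every GRKO library in 47 and 48 of the 58, beside 26.2% and 19.4% of all. They failed for 11 and 10, all among the 18 added. GRKO library 4 at 3 months was below every WT library in 42 of the 43 transcripts chosen without it, beside 14.6% of all. It failed for 1 of the 3 added. The members were chosen with it grouped by title, so these counts cannot decide its genotype. GRKO libraries 10 and 12 at 6 months, left out together, were each below every WT library in 43 of 45, beside 9.67% and 32.0% of all. Each failed for 2 of the 5 added. With 1 library left out, the most failures were 8 of 51 transcripts for WT library 7 at 6 months, where 11 were added. WT library 12 at 3 months failed for 7 of 49, with 9 added. GRKO library 3 at 6 months failed for 6 of 50, with 10 added.

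**Figure D3:**
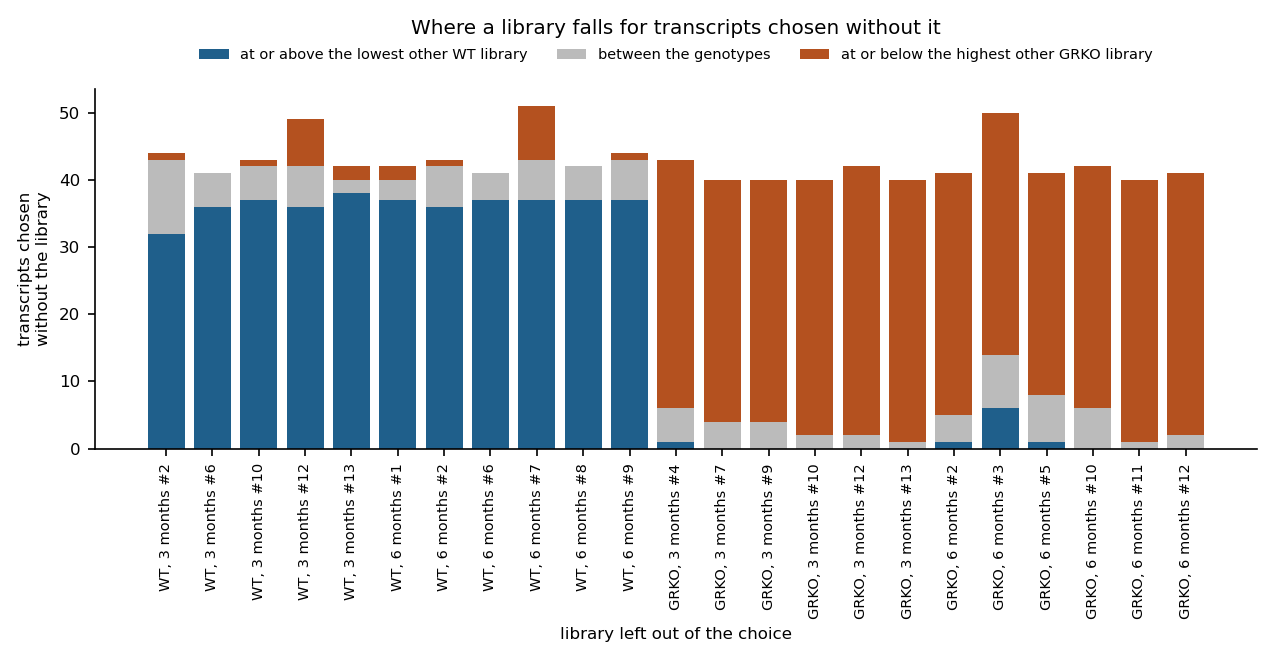
Number of transcripts chosen without a library (vertical axis, bar height) for each library left out (horizontal axis), coloured by whether its level lay at or above the lowest other WT library, at or below the highest other GRKO library, or between. WT library 7 and GRKO library 3 at 6 months left the longest lists, of 51 and 50 transcripts. Every list holds the 40 members.

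Age gives a further view, since the rule can be applied at 1 age and its list measured at the other. All 40 members are in both lists and were chosen on both ages. The counts below thus describe the lists and lend the members no support. At 3 months it chose 170 transcripts. In a fit of the 6 months libraries alone, 91 of these (53.5%) were called lower in GRKO and 0 higher (edgeR, adjusted p under 0.05), beside 2.96% of all 26557 transcripts called lower. Of the 170, 16 fell under the count filter of that fit and are counted as not called. At 6 months the rule chose 136 transcripts, of which 75 (55.1%) were called lower in the fit of the 3 months libraries and 0 higher, beside 2.98% of all 26673. Of these, 19 fell under the count filter. A transcript near 0 in GRKO passes that filter only where WT is high, which fixes its sign. Nothing is therefore read from the signs of those that passed, nor from 0 being called higher.

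Complete separation of the genotypes carried over in a similar share. Every GRKO library at 6 months was below every WT library of that age in 76 of the 170 transcripts (44.7%), beside 2.88% of all transcripts at 1 CPM or more in every WT library at 3 months. For the list from 6 months this held at 3 months in 73 of 136 (53.7%), beside 3.83%. The whole rule was met again at the other age by 44 transcripts, which is 25.9% of the list from 3 months and 32.4% of the list from 6 months. Meeting the rule at both ages is nearly the same as meeting it over all libraries, and the 40 members are in both lists. The rule over all libraries places them among the 76, the 73 and the 44, so those counts lend the members no support. These counts rested on GRKO library 4 and on WT libraries 2 and 6 of the 3 months groups. With GRKO library 4 counted as WT, the list from 3 months held 31 transcripts, of which 7 (22.6%) were called lower at 6 months, beside 2.96% of all. Of the 136 from 6 months, 11 (8.09%) were then called lower at 3 months, beside 0.225% of all. With WT libraries 2 and 6 left out, the list from 3 months grew to 1766 transcripts, of which 239 (13.5%) were called lower at 6 months, beside 2.96% of all. Of the 136 from 6 months, 96 (70.6%) were then called lower at 3 months, beside 17.9% of all.

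**Figure D4:**
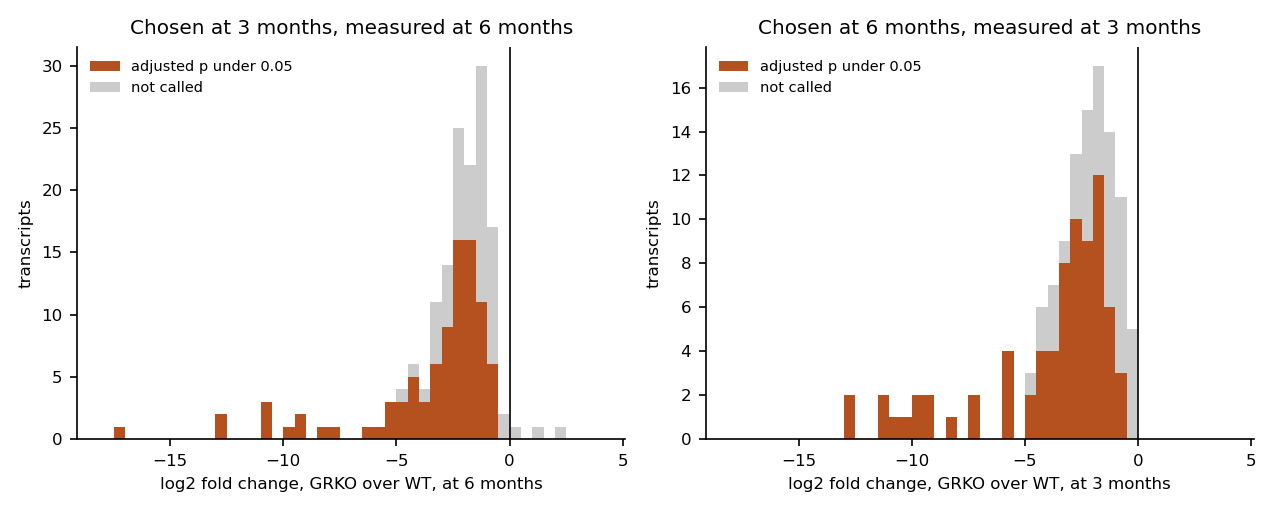
Log2 fold change of GRKO over WT (horizontal axis) at the age that was not used for the choice, as numbers of transcripts (vertical axis), stacked by whether the transcript was called. Left, the list chosen at 3 months, with 91 of 170 transcripts called lower at 6 months; right, the list chosen at 6 months, with 75 of 136 called lower at 3 months. Transcripts under the count filter, 16 and 19, are not drawn.

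Within WT, no member passed the test for age. At 6 against 3 months, 0 of 40 members were called (edgeR, adjusted p under 0.05), beside 0.00972% of all transcripts, and DESeq2 also called 0, beside 1.43% of all. At an unadjusted p under 0.05, 1 of 40 differed, beside 11.3% of all. Fold changes ran from -0.56 to 0.64 on the log2 scale. The rule sets a floor under every WT library but no ceiling. It may favour members that are steady in WT, but it does not bound how far the WT ages can differ. Over the members, the highest WT library was 1.41 to 17.9 times the lowest. Whether the choice lowered the share that differed was not tested, so nothing is read from that share. The 1 member under the unadjusted limit was ENSDART00000133371.4, named after its values were seen. It held 12.6 to 16.5 CPM in WT at 3 months, and 13.7, 16.9, 23.7, 29.6, 22.3 and 26.9 CPM in WT at 6 months. The ages overlapped, and the log2 fold change was 0.45 (SE 0.19, edgeR adjusted p = 0.390, and 0.256 to 0.739 over the alternatives).

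Within GRKO, 5 of the 40 members are at 0 in all 12 libraries and could not differ with age. Of the other 35, edgeR called 0, beside 0.0162% of all transcripts tested, while DESeq2 called 4, beside 2.31%. At an unadjusted p under 0.05 with edgeR, 9 of the 35 differed (25.7%), 2 higher and 7 lower at 6 months. The share over all transcripts was 10.3%, and 10.4% over those with a count in GRKO. Some of the 35, ENSDART00000147009.2 among them, passed the count filter only through their WT level. They fell under it in a fit of the GRKO libraries alone. The shares thus cover unlike transcripts, and nothing is read from their difference. ENSDART00000147009.2 had the smallest adjusted p and was chosen for it. Its GRKO libraries held 0.111, 0.263, 0.395, 0.218, 0.128 and 0.143 CPM at 3 months and 0.0896, 0.0268, 0.0631, 0.0960, 0.0570 and 0.0314 CPM at 6 months, so every library at 6 months was under every library at 3 months. These levels rest on 55 counts over the 12 libraries, all whole numbers. The log2 fold change was -1.76 (SE 0.35, edgeR adjusted p = 0.105, and 0.0242 to 1 over the alternatives). It had adjusted p = 0.0242 with DESeq2, and 0.0470 with edgeR when WT libraries 2 and 6 at 3 months were left out. Under 32 of the 34 alternatives that tested it, it was not called, and the fit of the GRKO libraries alone did not test it. The limit of the count filter holds for this member too. Nothing is therefore read from its test or from its ages not overlapping.

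ENSDART00000169235.2, described above, had GRKO means of 37.4 ± 18.8 and 13.4 ± 10.1 CPM at the 2 ages (n = 6 each). Its log2 fold change with age was -1.49 (SE 0.35, edgeR adjusted p = 0.145, and 0.00229 to 1 over the alternatives). Its adjusted p was 0.00229 with DESeq2, and 0.00294 with edgeR without GRKO library 2 at 6 months, which lay at 33.4 CPM beside 6.78 to 12.5 CPM in the other 5. Under 33 of the 35 alternatives it was not called. ENSDART00000160984.2, chosen after its values were seen, had GRKO levels of 1.76, 0.509, 1.32, 1.05, 0.950 and 0.392 CPM at 3 months. At 6 months it was at 0 in libraries 3, 5 and 10, and at 0.0285, 0.118 and 0.571 CPM in libraries 2, 11 and 12. Library 12 lay within the range at 3 months, and the other 5 did not. Its log2 fold change was -2.95 (SE 0.79, edgeR adjusted p = 0.153, and 0.000377 to 1 over the alternatives). Without library 12 the log2 fold change was -4.97 and the adjusted p was 0.00435, and with DESeq2 it was 0.000377. This member was not called under 32 of the 35 alternatives. Its WT means were 5.18 ± 1.01 CPM (n = 5) and 4.94 ± 1.19 CPM (n = 6).

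The effect of genotype was not shown to differ between the ages for any member with edgeR. The 5 members at 0 in every GRKO library give no interaction. Of the other 35, edgeR called 0, beside 0.00648% of all transcripts, and DESeq2 called 1, ENSDART00000183657.1 (adjusted p = 0.0102), beside 1.14%. At an unadjusted p under 0.05 with edgeR, 5 of the 35 differed (14.3%), 1 positive and 4 negative. The shares were 4.83% of all and 4.86% of those with a count in GRKO. The limit of the count filter given above holds here too, so nothing is read from this difference. ENSDART00000147009.2 had the smallest adjusted p here too. Its WT means were 3.90 ± 0.992 CPM (n = 5) at 3 months and 4.58 ± 0.685 CPM (n = 6) at 6 months, and its GRKO means were 0.210 ± 0.108 CPM and 0.0606 ± 0.0287 CPM (n = 6 each). The interaction was -1.89 on the log2 scale (SE 0.46, edgeR adjusted p = 0.170, and 0.0522 to 1 over the alternatives). ENSDART00000183657.1 and ENSDART00000147009.2 both passed the count filter only through their WT level, so nothing is read from their tests.

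Within WT, the correlations between members centred near 0. After the group means were taken off, pairs of members had a median correlation of 0.000149 across the 11 WT libraries (780 pairs), and 12.6% of the pairs were over 0.5. Pairs among all transcripts at 1 CPM or more in every WT library had a median of 0.0258, with 21.5% over 0.5. The median SD within a group on log2(CPM + 0.5) was 0.381 for members and 0.373 for those transcripts in WT at 3 months, and 0.361 and 0.256 in WT at 6 months. In GRKO it was 0.277 and 0.222 at 3 months, and 0.310 and 0.272 at 6 months. The rule holds members low in GRKO, where 5 are at 0 in every library and 13 more stay under 1 CPM. Their SD there depends on the offset of 0.5 CPM and on few counts. Members also had a lower median WT level than those transcripts. The sets are thus unlike in level, and the WT levels that chose the members also enter the correlations. Nothing is read from the differences between the sets in SD or in correlation. Estimated counts were fractional in every WT library for 28 of 40 members (70.0%), beside 61.8% of those transcripts.

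A few pairs of members passed a test of correlation by Pearson's r. How often pairs of other transcripts would pass was not tested, so this is not read as a trait of the members. With the group means taken off, 12.6% of member pairs were over 0.5, beside 21.5% of pairs among the other set above. The WT levels that chose the members enter these shares, so nothing is read from their difference. Of the 780 pairs across the 11 WT libraries on log2(CPM + 0.5), 4 positive and 1 negative passed an adjusted p of 0.05 for Pearson's r (two-sided permutation tests with 100000 resamples, Benjamini-Hochberg adjustment over the pairs), and 0 did so for Spearman's rho. These correlations keep the group means in, so both ages and the WT libraries that stand apart enter them. The pairs below were chosen for their positive correlation. With the group means taken off, the lowest correlation between members was -0.968, for ENSDART00000183657.1 and ENSDART00000033980.7. WT libraries 2 and 6 at 3 months were the lowest in WT for the former, at 141 and 179 CPM. They were the highest for the latter, at 34.5 and 25.9 CPM. How far this correlation rests on them was not tested. ENSDART00000033980.7 and ENSDART00000112447.5 had r = 0.922 (permutation adjusted p = 0.0078) and rho = 0.909 (permutation adjusted p = 0.0605). The unadjusted p of this r was 1e-05, the smallest these permutations can give. WT libraries 2 and 6 at 3 months were the 2 highest for both, at 34.5 and 25.9 CPM of the former and 43.2 and 45.8 CPM of the latter, and r was 0.898 without them. Without the 2 libraries farthest from the median of the former, r was 0.892.

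ENSDART00000052942.8 and ENSDART00000173612.2 had r = 0.940 (permutation adjusted p = 0.0156) and rho = 0.909 (permutation adjusted p = 0.0605). Without the 2 libraries farthest from the median of the former, r was 0.941, and without WT libraries 2 and 6 at 3 months it was 0.942. They ran from 3.69 to 10.7 CPM and from 9.69 to 27.7 CPM in WT, and both were lowest in WT library 2 at 6 months. ENSDART00000115076.4 and ENSDART00000142710.3, the pair that split the mutants, had r = 0.907 (permutation adjusted p = 0.0195) and rho = 0.909 (permutation adjusted p = 0.0605) in WT. Without the 2 libraries farthest from the median of the former, r was 0.934. The last 2 pairs had fractional counts in 20 or more of the 23 libraries for each transcript, and the first pair in 2 and 0 libraries. Whether shared reads enter these correlations was not tested.

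**Figure D5:**
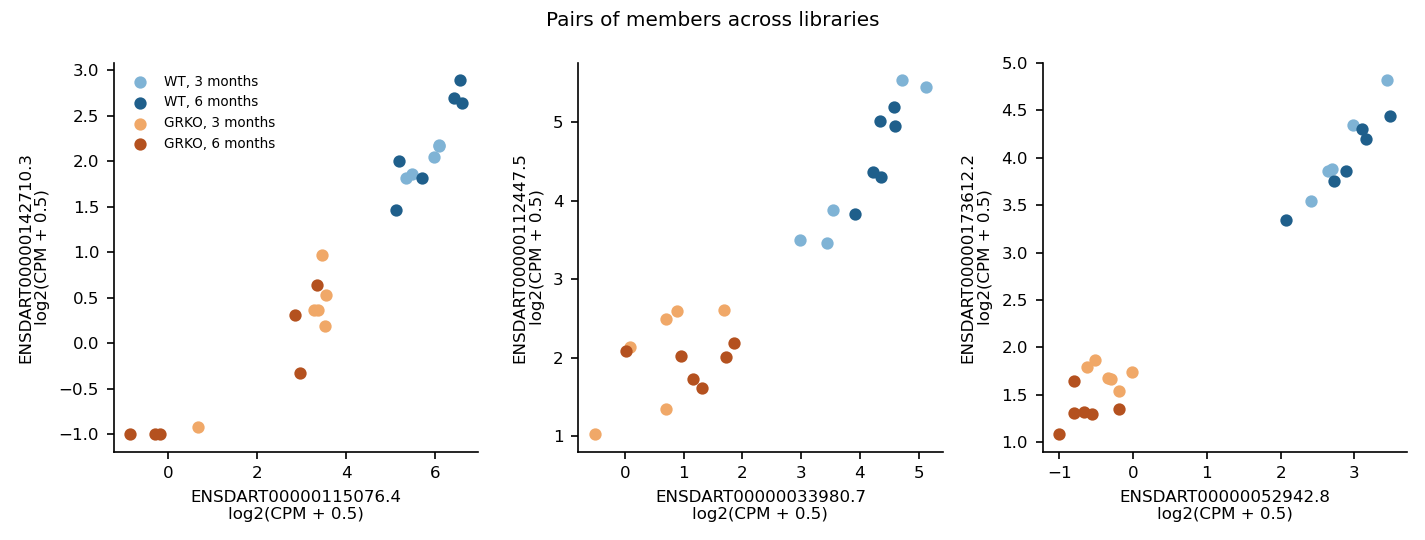
Levels of 3 pairs of members against each other, as log2(CPM + 0.5) on both axes, 1 point per library coloured by genotype and age. Within WT the pairs correlate at 0.907, 0.922 and 0.940 from left to right, and in the left panel 4 GRKO libraries lie apart at the lower left.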

How the data were processed

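The authors deposited 1 table of estimated counts per library, per the file headers, with kallisto 0.48.0 and GRCz11 named in the submitters' processing notes. This tool splits reads that fit several transcripts, so estimated counts need not be whole; the sources used here name no strand setting or annotation release. Libraries were grouped by title. CPM used the sum of each library. The members and lists were chosen with earlier results of these data known.

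Estimated counts were rounded and tested with edgeR 4.0.16 in R 4.3.3 (quasi-likelihood, robust, TMM factors, 1 mean per group, default filter: minimum count 10, minimum total 15), adjusted by Benjamini-Hochberg over all transcripts kept. Lists chosen at 1 age were tested in a separate fit of the other age. SEs were obtained as the fold change (log2) over the square root of F. A count was whole within 0.001. Folds against 0 used a floor of 3 counts over the GRKO group. Named transcripts were to be those with the widest margin and the highest WT level, those called for age, and those nearest the margin; as the identifiers carry no names, few are given, and those outside this rule are said to be chosen after their values were seen. The gene lists and cell type markers planned for named genes could not be applied.

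Alternatives were other scalings (RLE, upper quartile and, for the choice of members, TMM), DESeq2 1.42.0, limma 3.58.1 (voom), other filters, ratios and minimum levels, only the groups compared, whole counts only, a block by library number, GRKO library 4 left out or counted as WT, and leaving out WT libraries 2 and 6 at 3 months, GRKO libraries 10 and 12 at 6 months, or each library in turn. Figures were drawn with matplotlib 3.10.9.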

Additional observations from a re-analysis of the deposited data

Results flagged for a closer look

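The levels of the 19 named members and the summed share of all members gave 70 groups of 5 or 6 libraries. In 6 of these, 1 library lay farther from the rest than Dixon's 95% limit allows, where chance marks about 1 in 20 groups. Some named members were chosen after their values were seen, so that rate does not hold for them. The rate also assumes normally distributed values, and some GRKO groups hold several values of 0. The 6 flagged groups are thus not read against it. ENSDART00000188155.1 was at 99.5 CPM in WT library 2 at 3 months, beside 120.6 to 127.6 CPM in the other 4. ENSDART00000115076.4 was at 1.106 CPM in GRKO library 4 at 3 months, beside 9.259 to 11.17 CPM in the other 5. ENSDART00000183657.1 was at 0.001208 CPM in GRKO library 3 at 6 months, where the other 5 were at 0; beside 5 values of 0 any value above 0 passes this limit, and this one is less than 1 estimated count. GRKO library 2 at 6 months held 33.41 CPM of ENSDART00000169235.2, beside 6.78 to 12.48 CPM, and 6.569 CPM of ENSDART00000154055.2, beside 1.581 to 3.004 CPM. GRKO library 12 at 6 months held 0.5707 CPM of ENSDART00000160984.2, beside 0 to 0.1181 CPM.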

How the results depend on the processing

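The number of members moved with the rule and with 1 label. A margin of 2 kept 22 transcripts, whole counts only kept 5, and counting GRKO library 4 at 3 months as WT kept 1, ENSDART00000169548.2, which is not among the 40. Leaving out 1 library at a time gave 40 to 51. TMM, RLE and upper-quartile scaling gave 37, 39 and 33, of which 36, 37 and 33 are among the 40.

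Calls of members for age in WT were 0 under all 35 alternatives. For age in GRKO, DESeq2 called 4 (beside 2.31% of all transcripts). Leaving out WT libraries 2 and 6 at 3 months gave 1 (beside 0.0944%). Leaving out GRKO libraries 10 and 12 at 6 months gave 1 (beside 0.00633%). Leaving out 1 library at a time gave 0 to 1 (beside 0.00651% to 0.0488%). The interaction was called for 1 member with DESeq2 (beside 1.14%). Of the transcripts chosen at 3 months, 7 of 31 were called lower at 6 months with GRKO library 4 as WT (beside 2.96% of all). Without WT libraries 2 and 6, 239 of 1766 were (beside 2.96%). Without 1 library at a time, 77 to 117 were, from lists of 170 to 240. That is 45.3% to 60.6% of a list, beside 1.83% to 3.16% of all. Of those chosen at 6 months, 11 were called lower at 3 months with GRKO library 4 as WT (beside 0.225% of all). Without WT libraries 2 and 6, 96 were (beside 17.9%). Without 1 library at a time, 60 to 99 were, from lists of 136 to 205. That is 44.1% to 55.2% of a list, beside 1.74% to 4.43% of all. Without 1 library at a time, 35 to 39 members were called lower in GRKO at 3 months, beside 3.13% to 7.26% of all transcripts. At 6 months 38 to 39 were, beside 2.34% to 3.84%. The genotype contrast chose the members, so nothing is read from these counts. The causes of these changes in count were not tested. Direction was followed only for the log2 fold changes given above with adjusted p over the alternatives, and none of these reversed.

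With the library number as a replicate block, 27 members were called lower in GRKO at 3 months, beside 0.506% of all transcripts. At 6 months 6 members were, beside 0.0389% of all transcripts. The genotypes share only number 2 at that age, so block and genotype can hardly be told apart there. The numbers were not taken to pair libraries, as the labels do not say what they mark. Deviations from the group means correlated at -0.430, 0.169 and 0.0568 for numbers 10, 12 and 13 of WT and GRKO at 3 months. Of these, 1 of 3 WT and 2 of 3 GRKO libraries correlated best with their own number. Over all pairs of groups that share a number, the correlations ran from -0.430 to 0.426, the latter for number 2 of WT at 3 and 6 months. So few correlations cannot decide whether the numbers mark a shared batch. The block could not be fitted for the list from 3 months at 6 months, where the genotypes share 1 number. Members under 1 CPM in GRKO rest on few counts there, which limits any test between GRKO libraries.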
